A study of Bos taurus with 16 samples.

Results

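The merged transcript assembly of calf adipose tissue and muscle held 16705 loci without an Ensembl gene identifier, and 2897 of them (17.3%) were enriched in adipose tissue. A locus was taken as enriched when its mean over the 8 adipose libraries was at least 0.5 CPM and at least 4 times its mean over the 8 muscle libraries. CPM is the count of a locus scaled to counts per 1000000 counts of its library, with each merged locus counted 1 time in the total. The members were chosen by the tissue difference and the adipose mean of these same libraries, so both are given below as description and neither was tested. Of the 5025 unannotated loci that reached 0.5 CPM in adipose tissue, 57.7% were members. The same limits took 3939 of 14225 Ensembl loci (27.7%), and the mirrored rule took 541 unannotated loci as enriched in muscle.

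Transcript assemblers such as Cufflinks build models from mapped reads, and a model that overlaps no known gene is kept in the merged annotation under a locus number alone. Such loci can be long noncoding RNAs, missed exons and ends of known genes, pseudogenes or expressed repeats, and many are read in a single tissue. White adipose tissue consists of lipid-storing adipocytes beside vascular, stromal and immune cells, and skeletal muscle of multinucleate fibres with far fewer of these. The files hold locus numbers and counts without positions, sequences or lengths, so that the loci are named by number, and values are compared within a locus rather than per length between loci.

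The study asked what 5-hydroxytryptophan (5-HTP), the immediate precursor of serotonin, changed in the 2 tissues of pre-weaned calves. Holstein bull calves, 21 days old at the start and fed 8 L of milk replacer per day, received 90 mg of 5-HTP per day or saline (CON) for 10 days. Subcutaneous white adipose tissue from around the tail head and pelvis and gluteus medius muscle were taken from 4 calves per treatment, and poly-A libraries were sequenced, 1 per calf and tissue. Libraries carry the numbers 1 to 4 for CON and 5 to 8 for 5-HTP in both tissues, and values below are given in that order.

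Library totals, with each merged locus counted 1 time, ran from 15058963 to 22156739 counts in adipose tissue and from 18017558 to 25077800 in muscle. The 10 largest loci took 5.55% to 7.59% of an adipose library and 21.3% to 27.0% of a muscle library, and among the 14185 loci at 0.5 CPM or more in both tissues the median adipose level was 2.17 times the muscle level. The limit of 4 times is therefore to be read against a typical locus that is itself higher in adipose CPM. On the scale of TMM (trimmed mean of M values) factors over all 16 libraries, log2 ratios of adipose tissue to muscle were lower by 1.17, and 1141 of the 2897 loci met the rule on that scale. Muscle fibre markers were near 0 in adipose tissue: the sum of IGFN1 and the TTN locus was 0 in all 4 CON libraries and 0.246 to 0.947 CPM in the 5-HTP libraries, against 1052 to 4186 CPM in muscle. CFD, the adipocyte-secreted complement factor D, lay between 12.9 and 80.4 CPM in adipose tissue and between 1.13 and 7.48 CPM in muscle. In bulk tissue, fewer cells of a type and less RNA per cell cannot be told apart.

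A pair of adipose libraries stood apart among the members. CON calf 2 had 437 members at 0 counts, against 30 to 50 in the other 7 adipose libraries, and it was the lowest of the 8 libraries for 1064 members. It was also the highest for 508 members. The 3939 enriched Ensembl loci showed it too, with 146 at 0 counts in calf 2 and 6 to 16 in the others. Of the unannotated loci enriched in muscle, 431 were at 0 counts in adipose tissue of calf 2, and 314 to 350 in the other adipose libraries. The total of calf 2 was the smallest of the 8, at 15058963 counts. The total of 5-HTP calf 8 was 15531405 counts, with 42 members at 0. Whether depth had a part in the zeros of calf 2 was not tested. Calf 8 was the highest library for 825 members (28.5%), against 15.8% of the enriched Ensembl loci, and the lowest for 123.

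**Figure D1:**
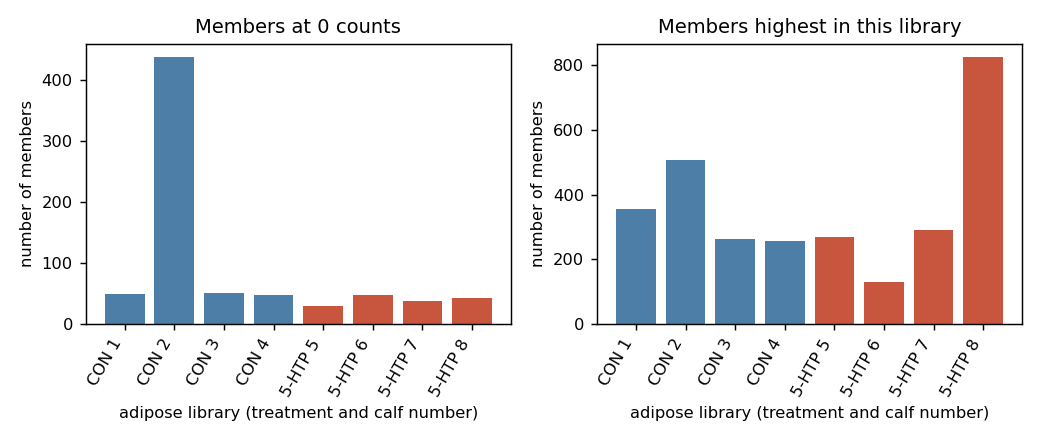
Number of members at 0 counts (left) and number of members whose highest CPM fell in each library (right), for the 8 adipose libraries, with CON calves in blue and 5-HTP calves in red. Calf 2 has 437 members at 0 where the others have 30 to 50, and calf 8 is the highest library for 825 members.

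Immune and adipocyte markers also differed in calf 8. The summed level of C1QB, CR2 and SIGLEC1, which mark macrophages and B-lineage or follicular cells, was 123, 72.8, 119 and 122 CPM in CON calves 1 to 4 and 120, 91.7, 62.6 and 23.8 CPM in 5-HTP calves 5 to 8. CFD was 42.9, 80.4, 37.8 and 45.2 CPM in CON calves and 41.2, 25.1, 21.9 and 12.9 CPM in 5-HTP calves. Calf 8 was the lowest library for both, and calf 2 was the highest for CFD and the lowest CON library for the immune sum. The sum of EGR1 and FOS, immediate early genes, was lowest in calf 8 (33.5 CPM) and calf 2 (42.0 CPM) and ran from 58.9 to 488 CPM in the other 6. Whether these differences had a part in the results on members was not tested.

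Most members were of low abundance. The median of their mean adipose levels was 1.16 CPM, with 0.564 CPM at the 10th percentile and 7.23 CPM at the 90th, whereas the median of the enriched Ensembl loci was 13.7 CPM. Means of at least 10 CPM were reached by 211 members, of at least 50 CPM by 51 and of at least 100 CPM by 28. Together the members held 1.43% to 2.06% of an adipose library and 0.112% to 0.212% of a muscle library. The share in adipose tissue was 1.70%, 2.0%, 1.71% and 1.70% in CON calves and 1.63%, 1.43%, 1.53% and 2.06% in 5-HTP calves, so that the highest shares were those of calves 2 and 8 and the treatments overlapped. The 6 largest members held 24.4% of all member CPM.

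In muscle, 385 members (13.3%) had 0 counts in all 8 libraries and 880 had at most 3 counts in each of them. The median over members of the muscle mean was 0.0998 CPM. Where more than 3 counts were found over the 8 muscle libraries, 1131 members were 4 to 8 times higher in adipose tissue, 607 were 8 to 16 times higher and 508 were higher than that. Another 266 members had 1 to 3 muscle counts in all. With the muscle mean held at no less than 3 counts over the 8 libraries (0.0169 CPM), the median ratio was 10.9.

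**Figure D2:**
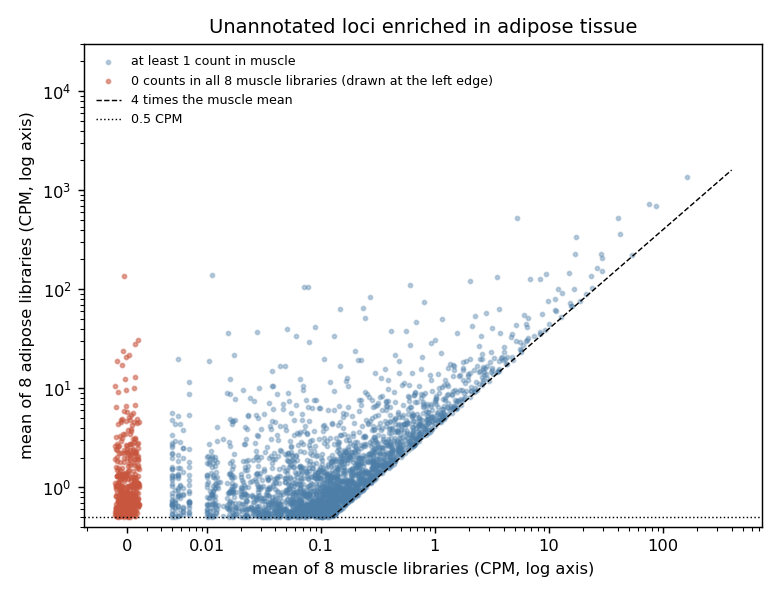
Mean of the 8 adipose libraries against the mean of the 8 muscle libraries for the 2897 members, both in CPM on log axes. Members lie above the dashed line of 4 times the muscle mean and the dotted line of 0.5 CPM by the rule, and the 385 members with 0 muscle counts are drawn at the left edge in red.

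Members at the limits of the rule were small. XLOC_033417 (mean 0.5001 CPM) and XLOC_001444 (0.5001 CPM) lay just inside the abundance limit, and XLOC_042228 (which rounds to 0.5 CPM) and XLOC_010562 (0.4999 CPM) just outside it. The ratio limit fell between XLOC_004115 (1.58 CPM in adipose tissue, 0.395 CPM in muscle) and XLOC_006159 (0.603 and 0.151 CPM) inside it and XLOC_035714 (0.960 and 0.240 CPM) and XLOC_034906 (1.08 and 0.270 CPM) outside it.

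The 3 largest members differed widely between libraries. XLOC_011712 had 1041, 2758, 894 and 1909 CPM in CON calves and 760, 844, 568 and 2082 CPM in 5-HTP calves, and its muscle mean was 162 CPM. XLOC_012977 had 483, 2805, 190 and 496 CPM in CON calves and 480, 242, 204 and 908 CPM in 5-HTP calves. XLOC_011711, whose number is next to that of XLOC_011712, had 467, 2907, 364 and 369 CPM in CON calves and 350, 189, 173 and 734 CPM in 5-HTP calves. In all 3 the highest library was CON calf 2, and calf 8 was the highest of the 5-HTP libraries. None of the 3 passed for treatment in edgeR's likelihood ratio test (FDR = 0.999 for each). The mean of XLOC_011711 was 1027 ± 1254 CPM (SD, n = 4) in CON and 361 ± 261 CPM (SD, n = 4) in 5-HTP.

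The other abundant members spread less. XLOC_014408 had 453, 456, 717 and 563 CPM in CON calves and 741, 399, 468 and 406 CPM in 5-HTP calves, against 3.14 to 7.34 CPM in muscle, which made its adipose mean 101 times its muscle mean. XLOC_037825 had 462, 161, 762 and 542 CPM in CON calves and 694, 515, 690 and 401 CPM in 5-HTP calves, with calf 2 the lowest. XLOC_014083 had 311, 738, 275 and 527 CPM in CON calves and 310, 180, 297 and 276 CPM in 5-HTP calves, with calf 2 the highest. The library of calf 2 was therefore at either end of the range for 5 of the 6 largest members, and inside the range for XLOC_014408. Among members with a mean of at least 5 CPM, XLOC_004076 had the smallest coefficient of variation (CV, SD over mean) at 0.0783. It ran from 197 to 245 CPM over the 8 adipose libraries and from 40.8 to 67.0 CPM in muscle, and its adipose mean was only 4.15 times its muscle mean. XLOC_021565 (CV 0.106, 83.7 to 119 CPM) and XLOC_025366 (CV 0.109, 16.2 to 22.3 CPM) followed.

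The median adipose mean of the 385 members with no muscle counts was 0.898 CPM, against 1.16 CPM over all members. Some of these 385 reached high adipose levels. XLOC_012615, the largest of them, had 476, 0.730, 79.0 and 91.8 CPM in CON calves and 49.1, 182, 84.2 and 131 CPM in 5-HTP calves, and 0 counts in every muscle library. Its adipose mean of 137 CPM was at least 8099-fold higher than the level of 3 counts over the 8 muscle libraries, a bound that covers counting error only. In CON calf 2 it was nearly silent, with 11 counts. XLOC_017422 had 29.3, 8.17, 14.2 and 47.7 CPM in CON calves and 78.9, 33.4, 17.7 and 14.3 CPM in 5-HTP calves. XLOC_032965 had 15.6, 5.25, 25.9 and 13.7 CPM in CON calves and 68.0, 27.4, 50.6 and 16.7 CPM in 5-HTP calves. Calf 2 was the lowest library for all 3, and the treatment groups overlapped in each.

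Members varied more between calves than other loci did. The median CV was 0.592 within CON and 0.501 within 5-HTP, against 0.332 and 0.255 over all 19250 loci at 0.5 CPM or more in adipose tissue and 0.354 and 0.296 over the enriched Ensembl loci. Low counts spread more. The order of members and enriched Ensembl loci was the same within broad classes of mean level, in which abundance was not matched further. At 0.5 to 1 CPM the median CV of members was 0.719 within CON and 0.601 within 5-HTP, against 0.677 and 0.574 for the enriched Ensembl loci. Between 5 and 50 CPM the median CV of the 362 members was 0.409 within CON and 0.354 within 5-HTP, against 0.320 and 0.266 for the enriched Ensembl loci and 0.308 and 0.235 for the other unannotated loci of that level. These are medians over loci of the same libraries and carry no test. Without calf 2, the median CV of members within CON was 0.435.

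Some members were on in some calves and off in others. Off was taken as at most 3 counts in a library and on as at least 30. By these limits 564 members (19.5%) were on in at least 1 adipose library and off in at least 1. The share was 6.35% of the 19250 loci at 0.5 CPM or more, members included, and 11.7% of the other unannotated loci among them. Of the 564 members, 348 were off in a single library, 106 in 2 and the rest in 3 to 7. Calf 2 was the only library that was off for 232 of the 564, against 12 to 25 for each other library. Without calf 2, 260 members (8.97%) remained on-off, against 2.77% of all loci and 4.42% of the other unannotated loci.

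A locus near 0.5 CPM has few counts in every library, and the shares fell with abundance. At 0.5 to 1 CPM, 24.3% of members and 22.4% of the enriched Ensembl loci were on-off. At 1 to 5 CPM the shares were 20.4% and 11.7%, at 5 to 50 CPM they were 2.21% and 0.592%, and at 50 CPM and over none of either set was on-off. Without calf 2 they were 12.9% and 11.8% at 0.5 to 1 CPM, 7.59% and 5.01% at 1 to 5 CPM, and 1.10% and 0.263% at 5 to 50 CPM. For the other unannotated loci the shares at these levels were 16.9%, 12.0% and 0.270%, and 7.72%, 3.45% and 0% without calf 2.

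**Figure D3:**
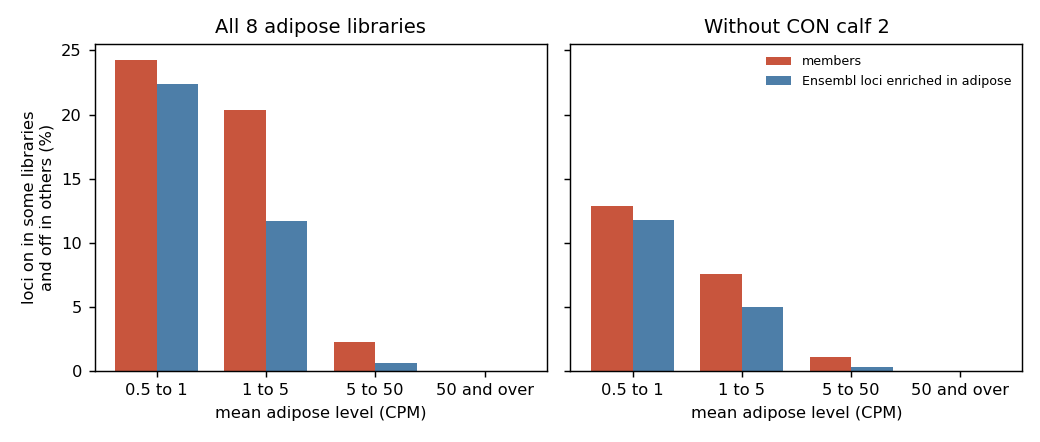
Share of loci (%) that were on in at least 1 adipose library and off in at least 1, by mean adipose level in CPM, for members (red) and enriched Ensembl loci (blue), with all 8 libraries (left) and without CON calf 2 (right). From 1 to 5 CPM the bars stand at 20.4% and 11.7% on the left and at 7.59% and 5.01% on the right.

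The on-off members of highest abundance had different calves at the low end. XLOC_031047 had 13.9, 0.199, 51.3 and 8.28 CPM in CON calves and 12.4, 27.4, 14.6 and 6.57 CPM in 5-HTP calves, so that it was off in calf 2 alone, with 3 counts. XLOC_022440 had 3.48, 5.38, 2.98 and 11 CPM in CON calves and 23.9, 7.45, 0.0986 and 2.0 CPM in 5-HTP calves, and was off in calf 7 alone, with 2 counts. Its muscle levels were 0.359, 0.846, 0.543 and 2.04 CPM in CON and 4.94, 1.31, 0.197 and 0.222 CPM in 5-HTP, so that the muscle library numbered 5 was the highest, number 4 the next and number 7 the lowest, as in adipose tissue. Over the 101 on-off members with at least 10 counts in a muscle library, the library of the same number was the highest in both tissues for 25 (24.8%). The share was 13.8% of all loci and 17.1% of the 1015 members with such counts, whether on-off or not. Among on-off loci with such counts it was 19.7% of 598 over all loci, members included. It was 19.0% of 242 over the other unannotated loci and 14.5% of 62 over the enriched Ensembl loci. The labels do not state that equal numbers are the same calf.

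Some members stood out by a single high library, which was counted after the values had been seen. For 77 members (2.66%) the highest adipose library was at least 4 times the next, and this library was calf 2 for 47 of them and calf 8 for 21. Among the enriched Ensembl loci, 22 (0.559%) were of this kind, 6 in calf 2 and 7 in calf 8. These shares were not split by abundance, and the members were the less abundant set (median 1.16 CPM, against 13.7 CPM). A single high library can also lift a mean over the limits of the rule. The largest CV, 2.48, belonged to XLOC_011345, which had 4.19, 2.32, 4.81 and 4.86 CPM in CON calves and 5.38, 2.39, 7.49 and 259 CPM in 5-HTP calves. In muscle it ran from 0.403 to 1.61 CPM in 7 libraries and was 5.72 CPM in the library numbered 8. The other 7 adipose libraries of XLOC_011345 lay between 2.32 and 7.49 CPM, and the treatment difference did not pass (logFC 4.12 ± 1.06 SE, FDR = 0.354).

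Members were often numbered next to each other. Neighbouring numbers were taken as a description only, since positions are not in the files used here. For 1214 members (41.9%) an adjacent number was also a member, against 15.1% of the other unannotated loci at 0.5 CPM or more. Runs of at least 5 consecutive members numbered 47 and held 299 members. For 824 members an adjacent number was an Ensembl locus, and for 283 of these (34.3%) that Ensembl locus was itself enriched in adipose tissue, against 24.4% for the other unannotated loci, 28.6% for all loci and 35.4% for the enriched Ensembl loci themselves.

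The longest run held the 16 members XLOC_003141 to XLOC_003156, and all but XLOC_003141 were read almost only in adipose tissue. Their mean adipose levels were 0.517 to 17.1 CPM, 13 of the 16 had 0 muscle counts, and all 16 together had 35 counts in the 8 muscle libraries. Of these counts, 31 belonged to XLOC_003141, which had means of 1.02 CPM in adipose tissue and 0.175 CPM in muscle. The loci on either side, XLOC_003140 and XLOC_003157, had means of 0.0830 and 0.0143 CPM in adipose tissue. The summed level of the run was 101, 16.2, 32.5 and 87.3 CPM in CON calves and 20.2, 55.5, 27.0 and 72.1 CPM in 5-HTP calves. Calf 1 was the highest library for 8 of the 16 members, and calf 2 had 0 counts for 6 of them, whereas no other adipose library had any member of the run at 0. XLOC_003153, 1 of the most abundant on-off members, had 24.7, 0.0664, 7.67 and 8.88 CPM in CON calves and 2.69, 13.3, 6.36 and 6.89 CPM in 5-HTP calves. Of the 15 members of the run that were tested, 13 had a negative logFC and 2 a positive one, and the smallest FDR was 0.999.

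**Figure D4:**
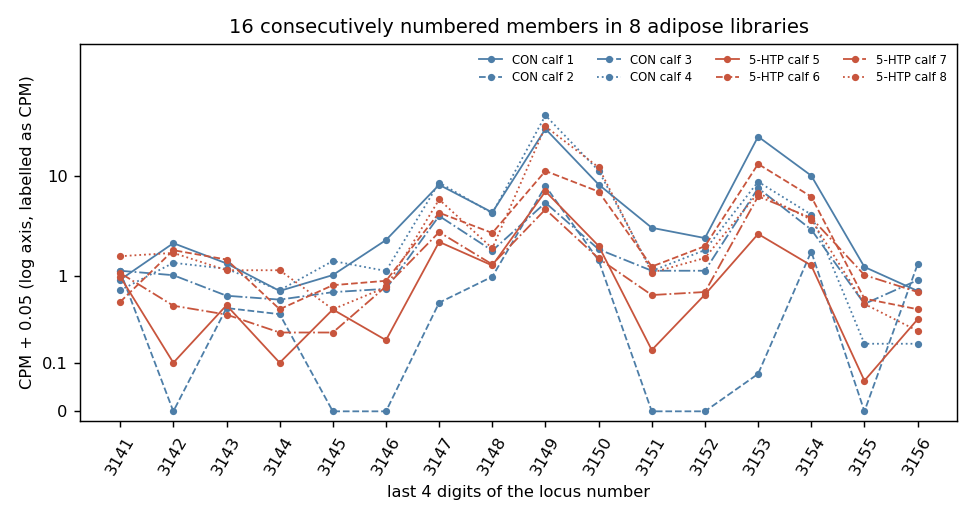
Level of the 16 consecutively numbered members XLOC_003141 to XLOC_003156 in each adipose library (CPM + 0.05 on a log axis, labelled as CPM), with CON calves in blue and 5-HTP calves in red and 1 line style per calf. The line of calf 2 falls to 0 at 6 members, where the other 7 libraries have counts.

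Supplementation with 5-HTP was compared with CON within adipose tissue. The rule averaged over both treatments, but a member could reach 0.5 CPM through 1 group alone. The mean was at least 0.5 CPM in both groups for 2342 members, in CON alone for 242 and in 5-HTP alone for 313, and a member of the latter kinds had to differ between the groups to some extent. Of the 2897 members, 2583 had at least 10 counts in at least 4 adipose libraries and were tested, and 314 were not. With edgeR's likelihood ratio test and Benjamini-Hochberg adjustment over all 20167 features tested, 7 members passed an FDR of 0.20 (0.271% of those tested, against 0.109% of all features). Of these, 5 were upregulated (0.194% of those tested) and 2 were downregulated (0.0774%) in 5-HTP-supplemented calves, against 0.0545% of all features in each single direction. With edgeR's quasi-likelihood test 0 members passed (0.00496% of all features did), the 7 members had an FDR of 0.966 each, and 124 members had an unadjusted P under 0.05 (4.8% of those tested, against 3.68% of all features). DESeq2 also called 7 members (0.272% of those tested, against 0.149% of all features), but not all the same ones. XLOC_040580 had an adjusted p of 0.380 with it, and the other 6 passed. The count moved with single libraries: it was 1 without CON calf 4 (XLOC_028208) and 3 without 5-HTP calf 8, and 11, 15, 11 and 16 without calves 1, 3, 5 and 6.

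XLOC_028208 had the smallest FDR. It had 0.599, 0.730, 0.687 and 0.660 CPM in CON calves and 2.19, 2.93, 4.63 and 7.08 CPM in 5-HTP calves, and 0 counts in all muscle libraries. The groups did not overlap, logFC was 2.65 ± 0.50 (SE) and the FDR was 0.00281. It passed the threshold in each of the 8 fits that left out 1 calf.

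XLOC_002658 is paired in the study's supplement with SLC7A8, which encodes LAT2, a transporter of neutral amino acids. It had 2.56, 0.863, 1.89 and 0.60 CPM in CON calves and 17.3, 2.17, 18.5 and 8.11 CPM in 5-HTP calves, so that calf 6 lay within the CON range (logFC 2.96 ± 0.62 SE, FDR = 0.0293). In muscle, XLOC_002658 ran from 0.20 to 1.48 CPM and did not pass (logFC 0.31, FDR = 0.997). Without calf 4 the adipose FDR was 0.341.

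XLOC_024071 had 7.57, 4.38, 5.38 and 4.86 CPM in CON calves and 10.4, 13.2, 13.6 and 18.9 CPM in 5-HTP calves, without overlap (logFC 1.35 ± 0.31 SE, FDR = 0.0489). XLOC_028032 had 2.45, 3.19, 2.18 and 2.1 CPM in CON calves and 7.23, 4.83, 6.21 and 20.1 CPM in 5-HTP calves, also without overlap (logFC 1.94 ± 0.48 SE, FDR = 0.118). XLOC_005436 had 17.7, 2.39, 14.5 and 8.52 CPM in CON calves and 43.5, 15.8, 54.9 and 132 CPM in 5-HTP calves, where calf 6 fell below CON calf 1 (logFC 2.56 ± 0.60 SE, FDR = 0.112). Calf 8 was the highest library for 4 of the 5 upregulated members, and calf 7 for SLC7A8. Without calf 8, XLOC_024071, XLOC_028032 and XLOC_005436 no longer passed. XLOC_005436 was also lost without calf 7, and XLOC_028032 without calf 1 or 3, and over the fits that left out 1 calf their highest FDR was 0.682 and 0.607.

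The 2 downregulated members were high in the same 2 CON calves, and both reached 0.5 CPM through the CON group alone, with means of 0.332 and 0.275 CPM in 5-HTP calves. XLOC_040296 had 0.490, 22.8, 0.744 and 24.9 CPM in CON calves and 0.648, 0.451, 0.0986 and 0.129 CPM in 5-HTP calves (logFC -5.24 ± 1.05 SE, FDR = 0.0489). XLOC_040580 had 0.218, 17.3, 1.03 and 15.4 CPM in CON calves and 0.598, 0.451, 0.0493 and 0 CPM in 5-HTP calves (logFC -4.98 ± 1.16 SE, FDR = 0.172). CON calves 1 and 3 lay within or near the range of the 5-HTP calves in both loci, so the groups overlapped and the difference rested on calves 2 and 4. Beside the loss without calf 4, XLOC_040296 did not pass without calf 7 or 8 (highest FDR 0.370), and XLOC_040580 did not pass without calf 2, 5, 6, 7 or 8 (highest FDR 0.685). XLOC_041404 showed the same calves, with 0, 11.3, 0.458 and 32.4 CPM in CON and 0.399, 0.226, 0.493 and 0 CPM in 5-HTP, but had too few libraries with 10 counts to be tested. Members with calves 2 and 4 both at least 4 times every other library numbered 5.

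**Figure D5:**
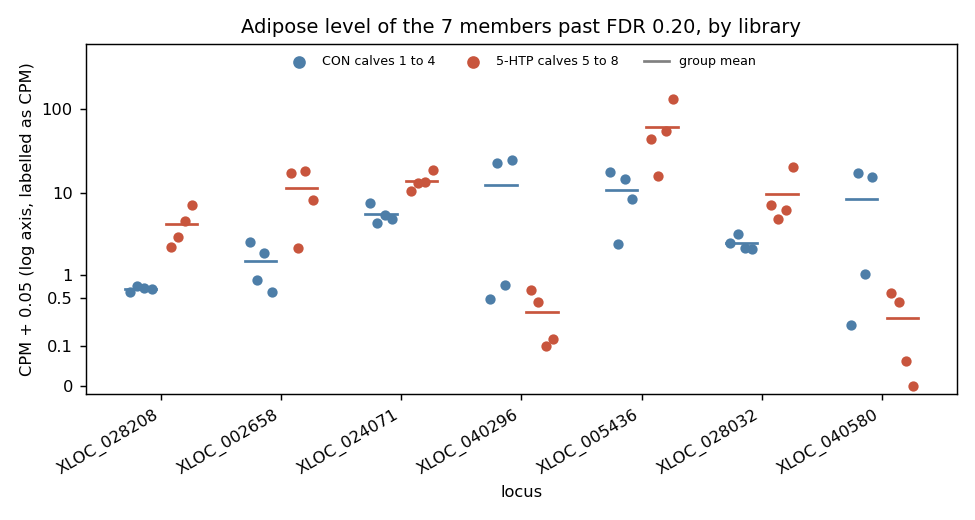
Adipose level by library of the 7 members past an FDR of 0.20 for 5-HTP against CON (CPM + 0.05 on a log axis, labelled as CPM). Points are libraries, short lines are group means, and the order is by FDR, from XLOC_028208 (0.00281) to XLOC_040580 (0.172), the latter high in CON calves 2 and 4.

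At P of 0.01 or less, 47 members were higher (1.82% of those tested, against 0.58% of all features) and 12 were lower (0.465%, against 0.511%). Among them, 20 of the 47 had reached 0.5 CPM through the 5-HTP group alone and 5 of the 12 through CON alone, which leaves 27 higher and 7 lower among the members at 0.5 CPM or more in both groups. The enriched Ensembl loci had 28 higher and 46 lower. The median logFC was 0.12 over the members tested and 0.01 over all features, and 58.1% of the members and 50.7% of all features had a positive logFC. The 4 values of 1 group lay beyond all 4 of the other for 66 members (2.56% of those tested, against 2.43% of all features). Of these, 49 were higher with 5-HTP (1.9%, against 1.1%) and 17 were lower (0.658%, against 1.33%). The median logFC, the positive share and these counts, here and below, were not split by the group that reached 0.5 CPM. They include members that did so through 1 group alone, whose direction the rule partly set, and more of these did so through 5-HTP (313) than through CON (242).

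Calf 8 was the highest library for 32 of the 47 members that were higher at P of 0.01 or less. Without calf 8 the median logFC of members was -0.03 and 48.0% were positive, against -0.01 and 49.4% over all features, and 22 members were higher and 14 lower at that P. Without calf 7, 29 were higher and 16 lower. Without any other single calf the median logFC stayed between 0.12 and 0.17 and the positive share between 57.3% and 61.0%. Calf 8 was also the library with the lowest immune marker sum (23.8 CPM) and the lowest CFD, whose part in these counts was not tested.

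Few members could be compared in muscle, where the rule made them low. Of the 2897 members, 467 had at least 10 counts in at least 4 muscle libraries. With edgeR's likelihood ratio test 0 of these passed an FDR of 0.20 (0.201% of all 16878 features did). At an unadjusted P under 0.05 there were 24 (5.14% of those tested, against 4.83% of all features). The quasi-likelihood test also called 0 (background 0.00592%), with 20 at an unadjusted P under 0.05 (4.28%, against 4.43%). DESeq2 called 0 (background 0.172%). The likelihood ratio test called 2 without calf 4 and 1 each without calves 1, 5 and 6. At P of 0.01 or less 8 members were higher with 5-HTP (1.71%, against 0.421% of all features) and 3 were lower (0.642%, against 1.08%). The median logFC of members in muscle was 0.04, against -0.01 over all features, and it was -0.03 without calf 1 or calf 5.

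The effect of 5-HTP was compared between the tissues with a tissue by treatment term. The main fit had no block, so that it took the adipose and muscle libraries of a calf as independent. Of 2594 members tested, 1 (0.0386%) passed an FDR of 0.20, against 0.087% of all 21849 features. XLOC_024126 had 0.871, 0.133, 1.32 and 0.420 CPM in adipose tissue of CON calves and 1.25, 0.858, 1.23 and 3.73 CPM in that of 5-HTP calves. In muscle it had 1, 5, 2 and 3 counts in the CON libraries and 0 in each 5-HTP library. The fitted term was -6.31 (FDR = 0.166, edgeR's likelihood ratio test), but since the 5-HTP muscle libraries held 0 counts, its size depends on how the model treats 0. In adipose tissue alone the member did not pass (logFC 1.38 ± 0.69 SE, FDR = 0.999). The quasi-likelihood test called 0 members for this term, with 133 at an unadjusted P under 0.05 (5.13%, against 3.75% of all features). The likelihood ratio test had 216 at that P (8.33%, against 4.91%). Fits that left out 1 number dropped the adipose and the muscle library of that number together. The count past the FDR was then 6, 2, 4 and 3 members without numbers 1, 2, 3 and 4, and 0 without number 6, 7 or 8. XLOC_024126 passed in 2 of these 8 fits, and did not pass without number 2, 4, 5, 6, 7 or 8 (highest FDR 0.495). With the library number as a block, 1 member passed (0.0386%, against 0.0915% of all features), but XLOC_024126 had an FDR of 0.201 and did not.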

How the data were processed

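The RNA-Seq data covered adipose tissue and muscle in 16 libraries, grouped by the tissue and treatment in the labels. The authors trimmed, mapped, assembled and counted the reads, and the submitters' notes name FastQC 0.11.7, Trim Galore 0.4.4, HISAT2, Cufflinks 2.2.1, HTSeq and the assembly ARS-UCD1.2. The deposited values are whole-number counts per feature without normalization, in 44265 rows for 42862 merged loci. Whether counting used strand is not given in the sources used here, so a locus and its antisense partner cannot be told apart.

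CPM used totals with 1 row per locus. Treatment was tested per tissue in R 4.3.3 with edgeR 4.0.16 (TMM, estimateDisp, likelihood ratio test, Benjamini-Hochberg over all features), after the study's methods, with the quasi-likelihood test beside it and DESeq2 1.42.0 as an alternative. A feature was kept when 4 or more libraries had 10 or more counts, which is 1 reading of the filter that the study words in terms of features removed. The tissue by treatment term used all 16 libraries. The standard error of logFC came from the fitted model. The edgeR steps were tested on simulated counts. Only loci with more counts than most members have were changed there, so that recovery at the level of most members was not tested. Python 3.11.15 made the descriptions and figures. Intervals, bounds and the floor of 3 counts cover counting error only.

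Members, marker genes and lists were chosen with earlier results of these data known. Members were named by rule: the 6 most abundant, those next to each limit, every member past the threshold in a test, the 4 most abundant on-off members, the 3 most and 3 least variable at 5 CPM or more, the 3 most abundant without muscle counts, the longest run, the 4 with the highest muscle level, and any with a symbol in the supplement. Alternatives were another test, scaling, filter, threshold or limit, a block, and leaving out each calf. For the tissue by treatment term, leaving out a calf removed both libraries of its number, whether or not they came from the same calf. The counts at P of 0.01, the shares without calf 2, the split by the group that reached 0.5 CPM and the single high libraries were added after the data were seen. No positions or sequences of these loci were used.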

Additional observations from a re-analysis of the deposited data

Results flagged for a closer look

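The highest and lowest library were compared with the rest of their group in 66 groups of 4 libraries of the members named above, in adipose tissue and, for the 4 members with the highest muscle level, in muscle, and 6 groups had a library whose gap to its nearest neighbour took up nearly the whole range of the group. For 4 independent values from a normal distribution, chance gives this in about 1 group in 20. The values here were CPM without a log and the groups share libraries, so that this rate need not hold. In CON, calf 2 stood alone at 2805 CPM for XLOC_012977, where the next library had 496 CPM, and at 2907 CPM for XLOC_011711, where the next had 467 CPM. In 5-HTP, calf 8 stood alone at 259 CPM for XLOC_011345 (next library 7.49 CPM), at 20.1 CPM for XLOC_028032 (next 7.23 CPM), at 3.73 CPM for XLOC_024126 (next 1.25 CPM) and at 1.42 CPM for XLOC_006159 (next 0.443 CPM). The groups are of members named for other reasons, among them their spread, and all 6 are the high values of the libraries that stood apart over the members as a whole.

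The effect of 5-HTP on XLOC_024126 differed between the tissues by -6.31 on the log2 scale in edgeR's likelihood ratio test (FDR = 0.166), with 0 counts in all 4 muscle libraries of 5-HTP calves and 1 to 5 counts in those of CON calves. This call held in only 2 of the 8 fits that left out 1 library number, with a highest FDR of 0.495. Without the filter on low counts it did not pass (FDR = 0.267).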

How the results depend on the processing

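The number of members followed the scale and the limits: 1141 with TMM-normalized CPM, 1625 at a mean of at least 1 CPM, 1766 at a ratio of at least 8, and 2689 to 3010 without 1 calf. On-off members numbered 229 with on at 50 counts, 322 with off at 0 counts only, and 260 to 530 without 1 calf. The median CV within 5-HTP was 0.334 at 5 CPM or more, and without 1 calf the medians were 0.431 to 0.498 in 5-HTP and 0.435 to 0.614 in CON. Members next to an enriched Ensembl locus numbered 445 within 2 locus numbers and 474 with the neighbour's ratio set at 2. In adipose tissue the members called numbered 0 with the quasi-likelihood test, 15 without the filter on low counts, 4 at an FDR of 0.05, and 1 to 16 without 1 calf. At P of 0.01, 21 members were higher and 5 lower with the quasi-likelihood test, 29 were lower without the filter, and 22 to 53 were higher and 5 to 18 lower without 1 calf. In muscle 2 members were called without the filter, and 0 to 2 without 1 calf. For the tissue by treatment term 0 were called with the quasi-likelihood test, and 0 to 6 without the adipose and muscle libraries of 1 number. The median logFC of members changed sign in adipose tissue without calf 8 (0.12 to -0.03) and in muscle without calf 1 or 5 (0.04 to -0.03) and without the filter (-0.02). The 1 call for the tissue by treatment term was negative, and without the filter or without both libraries numbered 5 it was 1 positive call. The cause of these changes was not tested.

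Whether equal numbers pair the tissues was checked over 10967 loci by the correlation of deviations from the group means. It was -0.33, -0.13, 0.13, 0.22, 0.10, 0.28, 0.17 and 0.08 for numbers 1 to 8, and 5 of 8 adipose libraries correlated best with the muscle library of their own number. The adipose libraries numbered 1, 2 and 8 each correlated better with a muscle library of another number (0.31, 0.30 and 0.11). The number was therefore not taken to pair libraries. With the replicate block, 1 member was called for the tissue by treatment term, which was XLOC_022595 (-4.24, FDR = 0.122, against 0.963 without the block) and not XLOC_024126. Depth limits the members near 0.5 CPM, where 3 counts in an adipose library are 0.135 to 0.199 CPM.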
